A study of Drosophila melanogaster with 8 samples.

Results

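The glycolytic enzyme mRNAs of adult Drosophila melanogaster heads were compared between synaptosomes and the head homogenate they were prepared from. The set was a list of 10 genes given by FlyBase symbol (Pgi, Pfk, Ald1, Tpi, Gapdh1, Gapdh2, Pgk, Pglym78, Eno and PyK) and matched to FlyBase identifiers. This rule uses no measured value, although the set was proposed with earlier results of these data in view. All 10 were among the 10669 genes of the count table, and 33 of its 20177 counted 3′ ends belonged to them.

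Glycolysis turns glucose into pyruvate in the cytosol. Its upper steps spend ATP to phosphorylate and split the hexose, and its lower steps, from the triose phosphates on, return ATP and NADH. In flies, glia are known to be strongly glycolytic and to supply neurons with lactate and alanine, and nerve terminals are known from other animals to make ATP by glycolysis as well.

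There were 4 synaptosome libraries and 4 input libraries, all labelled wild type (wt), and per the study's methods all from 3-day-old w1118 flies whose heads were pooled. Synaptosomes are nerve endings that pinch off and reseal during homogenization. Per the methods they were taken from a pair of Percoll gradient layers, the upper of which also held membranes, and the input was the filtered homogenate before centrifugation. The libraries were made with a QuantSeq 3′ REV kit, whose reads start at the poly(A) end, so a transcript is read at its end only and levels of different genes were compared without scaling for length.

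Of the 4 count columns per group, 3 bore the number of a sample title and are called library 1, 2 and 3. The fourth was named old, with no number, and is called synaptosome old or input old here. Nothing in the labels ties a library to a fly collection of its own, and the p-values therefore rest on a spread that could be technical. The labels also describe powder of snap-frozen heads, whereas the methods describe heads sieved from blended flies. In such bulk samples, fewer nerve endings and less RNA per ending cannot be told apart.

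Total counts ran from 1029666 to 9397652 in the synaptosome libraries and from 7940909 to 16865581 in the input libraries, with synaptosome 2 and 3 the shallowest. The libraries named old stood apart in summed levels of markers of several tissues, sums that a few genes can dominate. The summed level of 7 fat body markers, such as yolk protein and larval storage protein genes, was 14296 CPM (counts scaled to a common library total) in synaptosome old, against 954 to 1315 CPM in synaptosome 1 to 3. It was 15863 CPM in input old, against 3383 to 3614 CPM in input 1 to 3. The summed level of 7 cuticle genes was 3735 CPM in synaptosome old, against 15284 to 23192 CPM in synaptosome 1 to 3. Cpr72Ec alone had 3378 CPM in synaptosome old, against 14909 to 22597 CPM in synaptosome 1 to 3. Of the 8 neuron markers, which include the synaptic vesicle genes nSyb and Syt1, 0 were called different between the groups. Their log2 fold changes, synaptosome minus input, were −2.02 for nSyb, −2.01 for Rdl, −1.72 for Syt1 and −0.20 for brp. They were 0.11 for ChAT, 0.37 for VAChT, 1.09 for Syx1A and 1.40 for elav. The summed level of the 8 was lowest in the libraries named old. It was 71.1 CPM in synaptosome old, against 287 to 404 CPM in synaptosome 1 to 3. In input old it was 147 CPM, against 365 to 565 CPM in input 1 to 3. None of the 8 markers was at 0 in all 4 synaptosome libraries. The summed level of 8 glial markers was 1827 CPM in synaptosome old, against 3398 to 4097 CPM in synaptosome 1 to 3, and 1926 CPM in input old, against 2012 to 2698 CPM in input 1 to 3. For 8 photoreceptor markers it was 108014 CPM in synaptosome old, against 21279 to 43159 CPM in synaptosome 1 to 3, and 69160 CPM in input old, against 52220 to 67584 CPM in input 1 to 3. Arr2 and Arr1 made up most of it, at 85357 and 19824 CPM in synaptosome old. Of the others, ninaC, trp, trpl and chp were highest there too. The level of ninaE lay within the range of synaptosome 1 to 3, and norpA was lowest. Among the inputs, Arr1, Arr2 and trp were highest in input old, and ninaE, ninaC and norpA lowest.

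The 10 glycolytic mRNAs were abundant in both fractions, and none differed between synaptosomes and input beyond the spread of the libraries. At an adjusted p under 0.05 in edgeR's quasi-likelihood test, 0 of 10 were higher and 0 of 10 were lower, where 0.944% of all 8159 tested genes were called higher in synaptosomes and 4.13% lower. The median log2 fold change of the 10, synaptosome minus input, was −0.11, against −0.35 over all tested genes, and 7 of the 10 lay above that median. Fold changes ran from 0.491 for PyK, the enzyme of the last step, to 1.79 for Pgi, the enzyme that starts the common path from glucose phosphate. At an unadjusted p under 0.05 there were 2 members, Pgi and PyK, where 14.3% of all tested genes were below that value. DESeq2 called 0 of the 10, with a lowest adjusted p of 0.120, where it called 920 of the 10669 genes. The groups overlapped for all 10 genes, while 2.99% of all tested genes had synaptosome libraries that were all higher than the inputs and 14.5% had ones that were all lower.

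Together the 10 genes took 1.02%, 2.78%, 1.57% and 1.54% of all counts in synaptosome 1, 2, 3 and old, against 1.25%, 1.29%, 1.25% and 2.09% in input 1, 2, 3 and old. The high share of synaptosome 2 was largely Ald1, and the high share of input old was not. Without Ald1 the other 9 genes took 0.669% to 1.22% of the counts in synaptosome libraries and 0.757% to 1.61% in input libraries, with the library named old highest in each group.

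**Figure D1:**
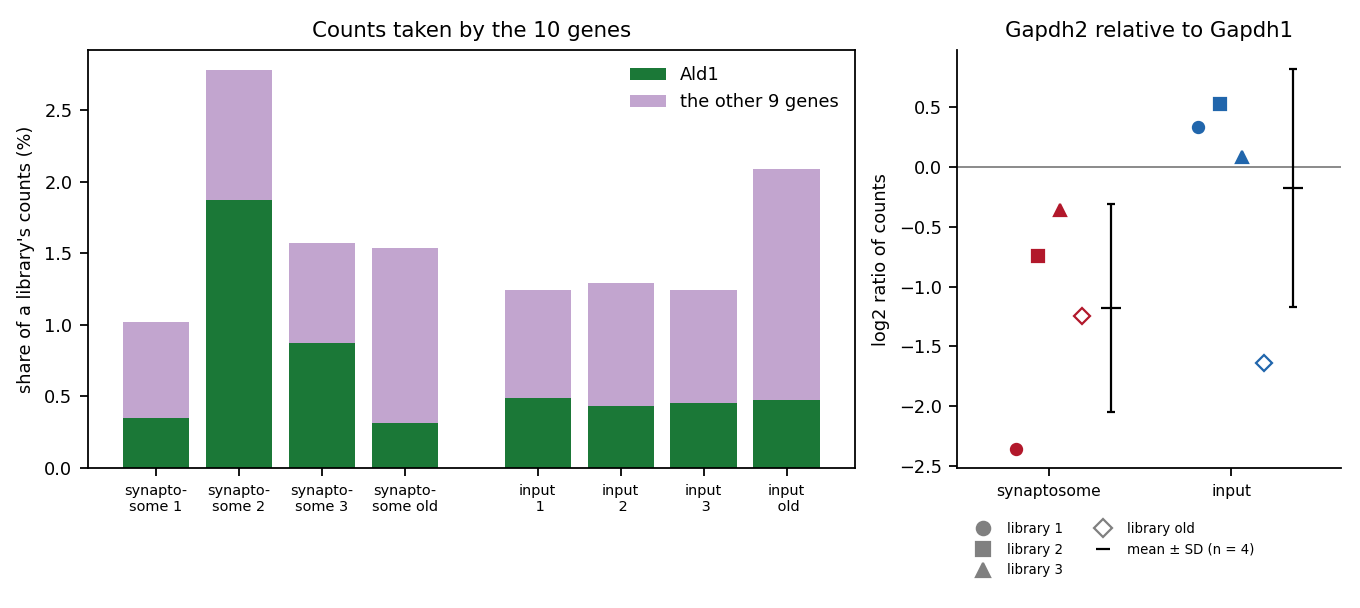
Left, percent of all counts in each of the 8 libraries taken by Ald1 and by the other 9 glycolytic genes, as stacked bars. Ald1 took 1.87% in synaptosome 2 and between 0.315% and 0.871% in the other 7 libraries. Right, log2 ratio of Gapdh2 to Gapdh1 counts in each library, with mean and SD of 4 libraries per group: it was below 0 in all 4 synaptosome libraries and in input old, and above 0 in input 1, 2 and 3.

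Ald1 had the highest mean level of the 10 in both groups, ranking number 10 of all genes in synaptosomes and number 17 in input, and it was the highest member in 6 of the 8 libraries. Gapdh1 was the highest member in the other 2, synaptosome old and input old. Pfk was lowest in 7 libraries and Pgk in synaptosome 3. By mean level the order in synaptosomes was Ald1, Gapdh1, Pgi, Eno, Gapdh2, Pglym78, PyK, Tpi, Pgk and Pfk, and in input it was Ald1, Gapdh1, Gapdh2, Eno, PyK, Pgi, Pglym78, Tpi, Pgk and Pfk. In both orders every gene differed from its neighbours by less than the larger of their SDs (the synaptosome means of Pgi, Eno and Gapdh2 were 1451, 1200 and 1163 CPM with SDs of 384, 307 and 570). The smallest count of any member in any library was 154 reads, for Pgk in synaptosome 3. If each read were a molecule of its own, counting error would be small beside the spread between libraries. The reads carry no molecular identifiers, so this was not shown.

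**Figure D2:**
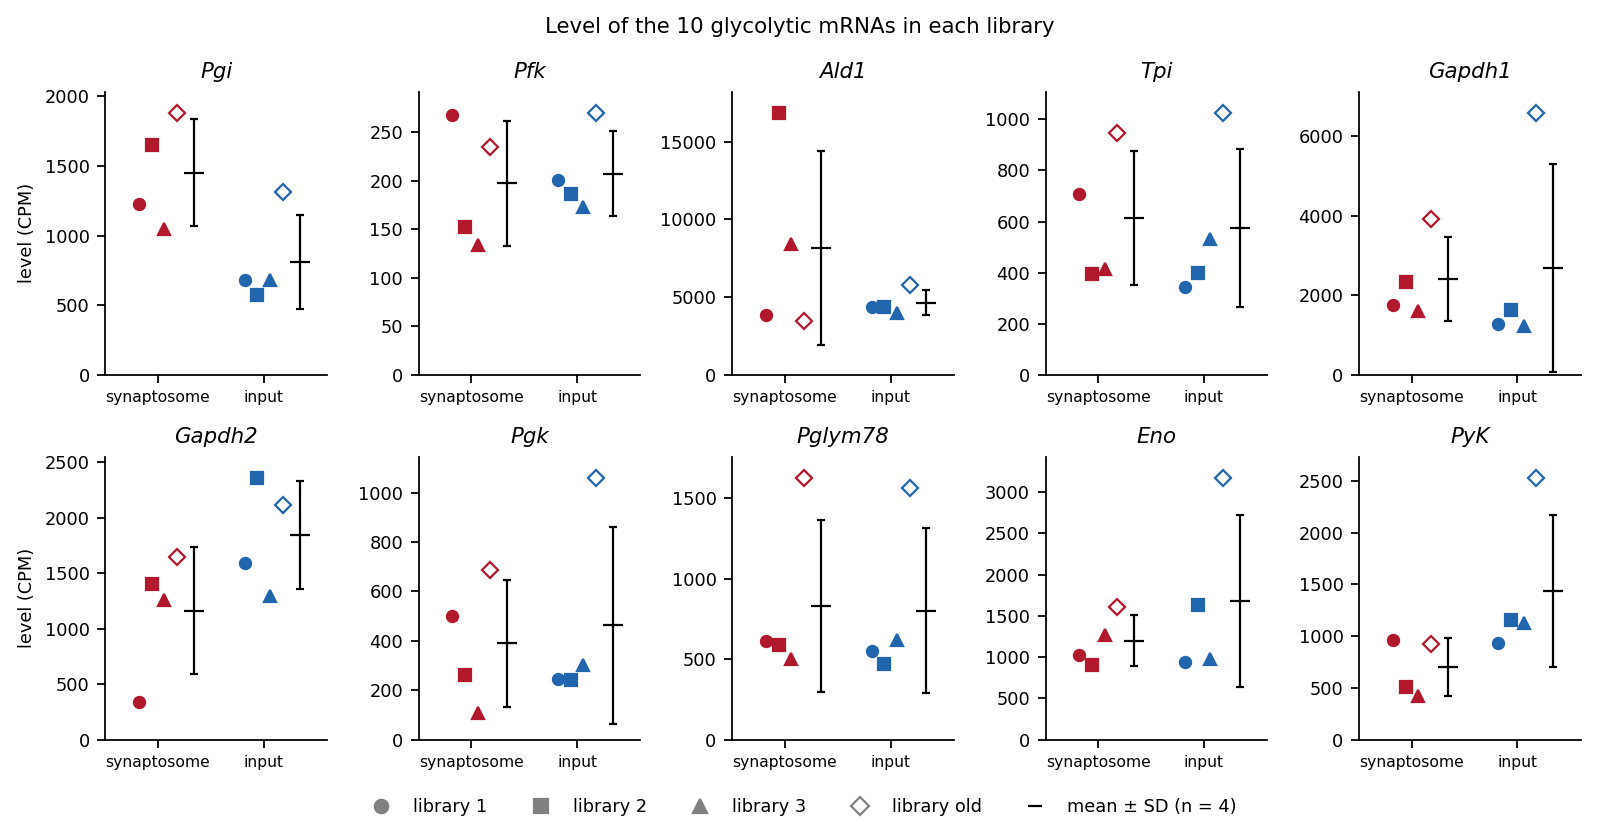
Level in CPM of each of the 10 genes in the 4 synaptosome and the 4 input libraries, with symbols for library 1, 2, 3 and old and black bars for mean and SD. The 2 groups overlap in every panel, and the open diamond of input old is the highest input point in every panel except that of Gapdh2.

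Pgi encodes glucose-6-phosphate isomerase, which turns glucose phosphate into fructose phosphate (FBgn0003074, chromosome arm 2R, bases 8910900 to 8914069, genome build dm6 here and below). Its level was 1226, 1653, 1045 and 1882 CPM in synaptosome 1, 2, 3 and old, against 681, 570, 679 and 1312 CPM in input 1, 2, 3 and old. Every synaptosome library was above input 1 to 3, and input old lay within the range of the synaptosome libraries. The fitted fold change was 1.79 (log2 0.84, SE 0.38, 95% interval of the fold 1.004 to 3.19) with an edgeR unadjusted p of 0.0486 and an adjusted p of 0.344. Pgi was among the members with the narrowest spread between synaptosome libraries, the highest being 1.80 times the lowest. Without both libraries named old its log2 fold change was 1.02 with an edgeR adjusted p of 0.0554, the lowest reached by any member under any alternative.

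Pfk encodes phosphofructokinase, the regulated enzyme that commits fructose phosphate to glycolysis (FBgn0003071, 2R, 10109740 to 10117457). Its level was 267, 152, 134 and 235 CPM in synaptosome 1, 2, 3 and old, against 201, 186, 173 and 270 CPM in input 1, 2, 3 and old. The input libraries lay inside or just above the range of the synaptosome libraries. The log2 fold change of −0.07 (SE 0.38, interval of the fold 0.540 to 1.68, edgeR adjusted p = 0.974) changed sign under 6 of 18 alternatives, the highest value being 0.09 without synaptosome 2.

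Ald1 encodes fructose-bisphosphate aldolase, which splits the hexose into triose phosphates (FBgn0000064, 3R, 26254069 to 26261591). Its level was 3862, 16863, 8406 and 3465 CPM in synaptosome 1, 2, 3 and old, against 4372, 4378, 3964 and 5811 CPM in input 1, 2, 3 and old. The numbered input libraries differed by a factor of 1.10 at most, whereas the highest synaptosome library was 4.87 times the lowest. Synaptosome 2 and 3 were above every input library, and synaptosome 1 and old were below every input library. The fold change was 1.76 (log2 0.82, SE 0.49, interval of the fold 0.840 to 3.68, edgeR adjusted p = 0.538). The value rested on synaptosome 2: without it the log2 fold change was 0.23, and between the libraries named old alone it was −0.75. In synaptosome 2, the library with the fewest counts, Ald1 was 67.3% of the counts of the 10 genes, against 34.3% in synaptosome 1, 55.4% in synaptosome 3 and 20.5% in synaptosome old. An antisense RNA gene, asRNA:CR44321, lies opposite Ald1 on the other strand, and the kit keeps strand.

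Tpi encodes triosephosphate isomerase, which interconverts the products of aldolase (FBgn0086355, 3R, 30132981 to 30134599). Its level was 708, 395, 414 and 945 CPM in synaptosome 1, 2, 3 and old, against 343, 400, 531 and 1026 CPM in input 1, 2, 3 and old. Within each group the library named old was highest. On the log2 scale the fold change was 0.10 (SE 0.45, interval of the fold 0.541 to 2.12, edgeR adjusted p = 0.967), and it was −0.19 without synaptosome old.

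Gapdh1 and Gapdh2 encode paralogous glyceraldehyde phosphate dehydrogenases, the step at which NADH is formed (FBgn0001091, 2R, 7791901 to 7793380, and FBgn0001092, X, 15868145 to 15869661). Reads of close paralogs can be divided between them by the mapping, so the separate values are uncertain to that extent. Gapdh1 had 1757, 2344, 1614 and 3908 CPM in synaptosome 1, 2, 3 and old, against 1266, 1633, 1222 and 6590 CPM in input 1, 2, 3 and old. Input old was 4.80 times the mean of the other input libraries, the highest such ratio of the 10 genes. The log2 fold change of Gapdh1 was −0.15 (SE 0.57, interval of the fold 0.379 to 2.13, edgeR adjusted p = 0.957). Without input old it was 0.80, and without both libraries named old 0.47, so its direction rested on that library.

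Gapdh2 had 342, 1400, 1260 and 1649 CPM in synaptosome 1, 2, 3 and old, against 1594, 2361, 1293 and 2117 CPM in input 1, 2, 3 and old. It was the only member for which input old was not the highest input library. Synaptosome 1 was the lowest library, and synaptosome 2 and old lay within the input range. Its log2 fold change was −0.66 (SE 0.46, interval of the fold 0.314 to 1.27, edgeR adjusted p = 0.627) and stayed below 0 under all 18 alternatives, which counts the comparison of the libraries named old alone.

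The balance of the paralogs within a library does not depend on scaling. The log2 ratio of Gapdh2 to Gapdh1 counts was −2.36, −0.74, −0.36 and −1.25 in synaptosome 1, 2, 3 and old, against 0.33, 0.53, 0.08 and −1.64 in input 1, 2, 3 and old. Gapdh1 exceeded Gapdh2 in all 4 synaptosome libraries, and Gapdh2 exceeded Gapdh1 in 3 of 4 input libraries, input old being the exception. The ratio averaged −1.18 ± 0.87 in synaptosomes and −0.17 ± 0.99 in input (SD, n = 4 each), a difference of −1.003, which a two-sided exact permutation test over libraries did not separate from 0 (p = 0.2, where 0.0286 is the smallest p that 4 against 4 can give). Without both libraries named old the difference was −1.47 and every synaptosome library was below every input library. The exact permutation p was then 0.1, the smallest that 3 against 3 can give.

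Pgk encodes phosphoglycerate kinase, the first enzyme to return ATP (FBgn0250906, 2L, 2746880 to 2753068). Its level was 502, 262, 109 and 689 CPM in synaptosome 1, 2, 3 and old, against 246, 243, 303 and 1062 CPM in input 1, 2, 3 and old. It varied most of the 10 genes among synaptosome libraries, the highest being 6.34 times the lowest, and input old was 4.02 times the mean of the other inputs. Between the groups the log2 fold change was −0.25 (SE 0.63, interval of the fold 0.326 to 2.18, edgeR adjusted p = 0.934), and it was 0.56 without input old and 0.06 without synaptosome 3. The opposite strand of the locus holds Cwc25 and Bacc.

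Pglym78 encodes phosphoglycerate mutase, which moves the phosphate group within phosphoglycerate (FBgn0014869, 3R, 29148248 to 29149901). Its level was 614, 588, 498 and 1629 CPM in synaptosome 1, 2, 3 and old, against 554, 467, 619 and 1563 CPM in input 1, 2, 3 and old. Libraries 1 to 3 of both groups lay between 467 and 619 CPM, and both libraries named old were far above them. The opposite strand holds eIF2D. The log2 fold change was 0.06 (SE 0.51, interval of the fold 0.481 to 2.25, edgeR adjusted p = 0.985). It was −0.50 without synaptosome old and 0.60 without input old.

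Eno encodes enolase, which forms phosphoenolpyruvate (FBgn0000579, 2L, 1724768 to 1729636). Its level was 1032, 902, 1264 and 1603 CPM in synaptosome 1, 2, 3 and old, against 937, 1630, 979 and 3177 CPM in input 1, 2, 3 and old. Input 1 and 3 lay among the synaptosome libraries, and input 2 and old above them. Enolase mRNA had a log2 fold change of −0.49 (SE 0.44, interval of the fold 0.367 to 1.39, edgeR adjusted p = 0.741) and 0.02 without input old.

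PyK encodes pyruvate kinase, which forms pyruvate and ATP (FBgn0267385, 3R, 22367536 to 22372746). Its level was 965, 513, 418 and 922 CPM in synaptosome 1, 2, 3 and old, against 930, 1157, 1122 and 2532 CPM in input 1, 2, 3 and old. The groups touched only where synaptosome 1 lay above input 1, and this depended on the scaling. With the scaling of the end counts, PyK end 2, which held nearly all PyK counts, had 921, 480, 390 and 914 CPM in synaptosome 1, 2, 3 and old. In input 1, 2, 3 and old it had 977, 1215, 1202 and 2675 CPM. Every synaptosome library was then below every input library, as for 16.9% of all tested ends. The fold change was 0.491 (log2 −1.03, SE 0.44, interval of the fold 0.253 to 0.954) with an edgeR unadjusted p of 0.0378 and an adjusted p of 0.300. It stayed below 0 under all 18 alternatives, between −1.46 and −0.61, and none of the 17 that have a test passed the threshold.

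**Figure D3:**
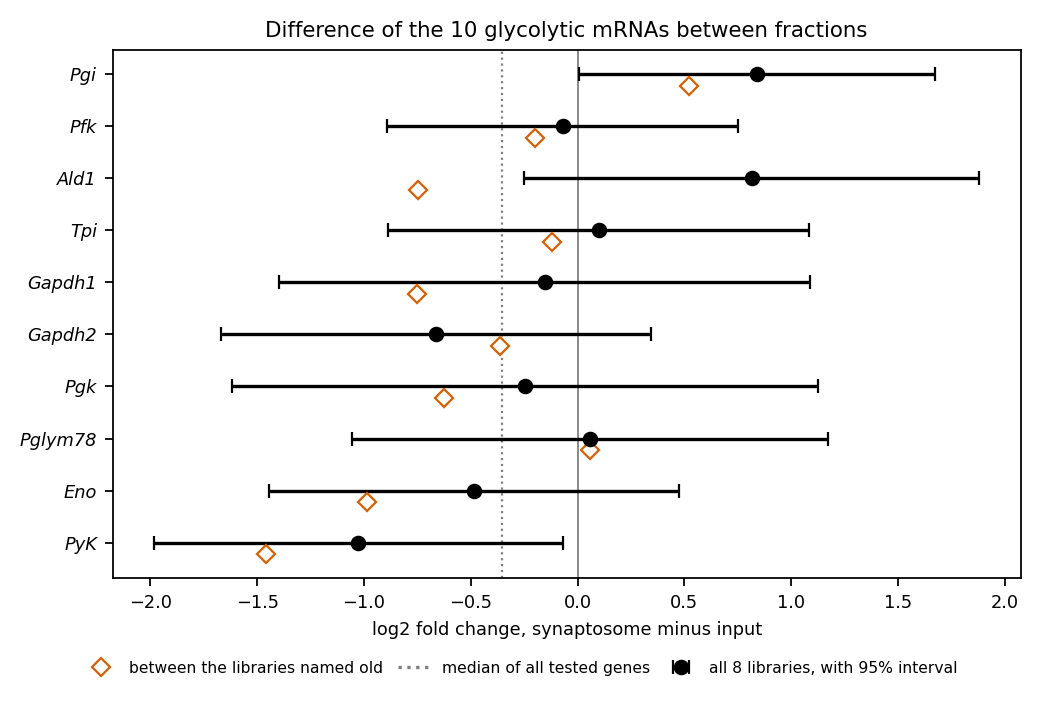
Log2 fold change, synaptosome minus input, of each gene over all 8 libraries with its 95% interval (black), and the log2 ratio between synaptosome old and input old alone (open diamonds, no test). The solid line is at 0 and the dotted line at the median of all tested genes, −0.35. The intervals of Pgi and PyK alone exclude 0, on opposite sides, before adjustment over all genes.

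The spread was not the same for all members, and much of it lay between the libraries named old and the numbered ones. Synaptosome old was the highest synaptosome library for 7 of the 10 genes, where 33.2% of all tested genes were highest there. Its median ratio to the mean of synaptosome 1 to 3 was 1.58 over the 10 genes and 0.971 over all tested genes. Ald1 went the other way, at 0.357 times the mean of synaptosome 1 to 3. Input old was the highest input library for 9 of the 10 genes, where 31.1% of all tested genes were highest there. The median ratio of input old to the mean of input 1 to 3 was 2.39 over the 10 genes and 0.961 over all tested genes, and 7 of the 10 lay above 1.97, the 90th percentile of all tested genes. The fat body sums above were high in the same libraries. The summed level of 9 muscle markers was 10275 CPM in input old, against 3012 to 6834 CPM in input 1 to 3. In synaptosome old it was 2828 CPM, within the 1369 to 2903 CPM of synaptosome 1 to 3. Of the muscle markers, Act88F had 2940 CPM in input old, against 35.4 to 154 CPM in input 1 to 3. Mlc2 had 4337 CPM in input old, about as in input 2 (4379 CPM). The part of these tissues in the levels of the glycolytic mRNAs was not tested.

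**Figure D4:**
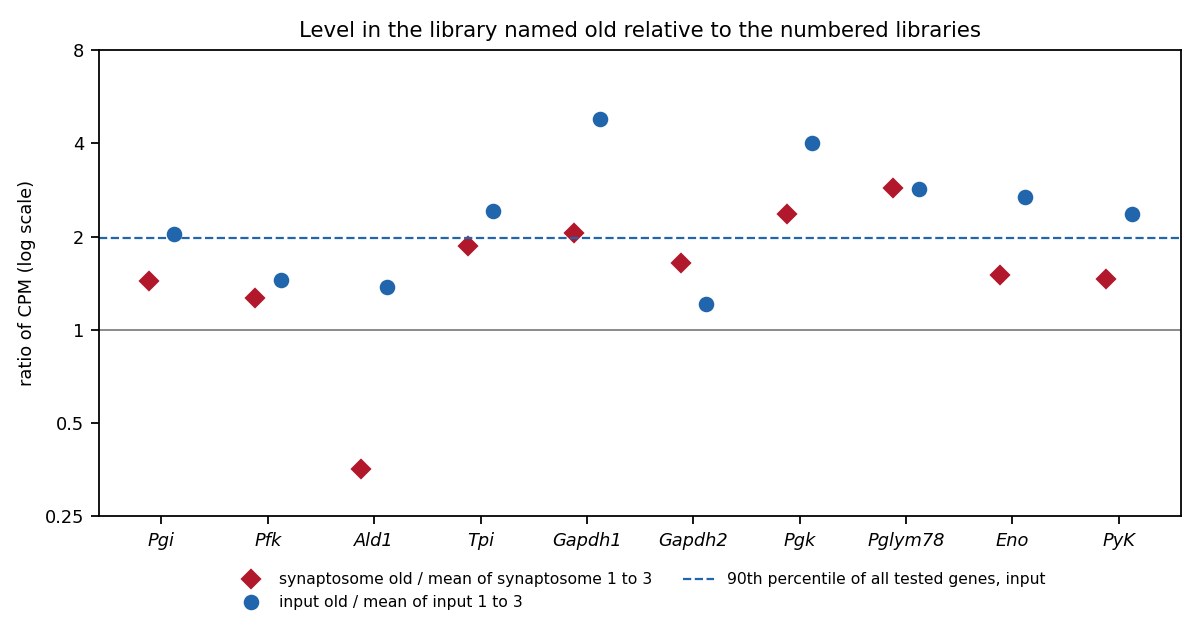
Ratio of the CPM in synaptosome old to the mean of synaptosome 1 to 3 (diamonds) and of the CPM in input old to the mean of input 1 to 3 (circles), on a log axis, for the 10 genes. The dashed line marks the 90th percentile of the input ratio over all tested genes, 1.97. Gapdh1 has the highest input ratio (4.80) and Ald1 the only ratio below 1 (0.357, synaptosome).

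The members did not all vary together. Over the 8 libraries, the Pearson correlation of a member's log2 CPM with the mean of the other 9 was 0.956 for Gapdh1, 0.897 for Pglym78, 0.799 for Pgk, 0.789 for Tpi and 0.778 for Eno. It was 0.596 for Pfk, 0.564 for PyK, 0.462 for Pgi, 0.1497 for Gapdh2 and −0.23 for Ald1. These values are descriptions over 8 libraries that share depth, fraction and the contrast of old and numbered libraries. Of 5460 other tested genes averaging 100 or more counts, those whose log2 CPM followed the mean of the 10 most closely over the 8 libraries were COX4 (r = 0.969), Chchd3 (0.961), ATPsynD (0.957), ATPsynO (0.931) and ND-39 (0.928). The mean profile of the 10 was itself highest in input old. All 5 were high there too, which largely follows from how they were picked. COX4, for example, had 2531, 3610, 2015 and 5316 CPM in synaptosome 1, 2, 3 and old, against 1934, 1986, 1927 and 8188 CPM in input 1, 2, 3 and old.

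The 3′ ends of the members were then compared. Of their 33 counted ends 32 held reads, 18 held at least 1% of their gene's counts, and 24 passed the filter on low counts. None of the 24 differed between synaptosomes and input in edgeR's quasi-likelihood test (adjusted p 0.0628 to 0.987), where 0.732% of 11062 tested ends were called higher and 6.46% lower. At an unadjusted p under 0.05 there were 4 (Pgi end 2, Ald1 end 20, Eno end 4 and PyK end 2), against 14.4% of all tested ends. The usage of an end, its change relative to that of its whole gene, was tested for 20 ends. None was called, and none of the 5240 tested ends of 2216 genes was (0%). Ald1 end 20 was the only member end with an unadjusted p under 0.05 for usage, where 7.33% of all such ends were below it. The deposited tables number the counted ends of a gene and give them no coordinates, so the numbers below name an end and do not place it.

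A list of known 3′ ends deposited with the counts held 65 for the 10 genes, with coordinates. Ald1 had 17, Gapdh2 13, Gapdh1 8, Pgk 6, Pgi, Pglym78 and Eno 4 each, and Pfk, Tpi and PyK 3 each. All known ends of Pgi, Pfk and Eno lay in the annotated 3′ UTR, between 5 and 302, 265 and 588, and 170 and 572 bases past the stop codon. Of the others, 13 lay there for Ald1, 3 for Pglym78, 2 for PyK and 1 each for Gapdh1, Gapdh2, Pgk and Tpi. The rest lay in coding exons, introns or a 5′ UTR, or outside the transcripts. Tpi, Pgk and Pglym78 had 1 counted end each. Gapdh1, Gapdh2 and PyK had 2, 6 and 2 counted ends, of which 1 held 99.95%, 98.9% and 99.98% of the gene's counts over all libraries.

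Ald1 had 13 counted ends, the second highest number of any gene, against a median of 1 per gene. The annotation gives it 10 transcripts with 3 stop codons in alternative last exons, which encode aldolases with different C-termini. On chromosome arm 3R the stop codons lie at bases 26256528 to 26256530 (2 transcripts), 26256212 to 26256214 (3 transcripts) and 26255342 to 26255344 (5 transcripts), in the order of transcription on the minus strand. Of the 17 known ends, 4 lie between the second and the last of these and 12 beyond the last. The known ends in annotated 3′ UTR lie up to 1274 bases past a stop codon. Despite this number of ends, end 4 held 88.1% of all Ald1 counts, end 11 held 6.05%, end 1 held 2.20%, end 20 held 1.85% and end 12 held 1.35%. The remaining 8 ends together held 0.223% to 0.684% in any library.

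Ald1 end 4 held 94.7%, 97.1%, 96.4% and 76.6% of Ald1 counts in synaptosome 1, 2, 3 and old, against 89.3%, 88.3%, 89.5% and 85.9% in input 1, 2, 3 and old. Wilson 95% intervals of these shares were at most 0.483 points to either side. They cover counting error only, not the spread between libraries. The reads carry no molecular identifiers, so copies of a molecule count as separate reads and the intervals can be too narrow. The numbered synaptosome libraries were above every input library, and synaptosome old was below every one. The mean share was 91.2% ± 9.78 in synaptosomes and 88.3% ± 1.66 in input (SD, n = 4 each), a difference of 2.91 points (two-sided exact permutation p = 0.657). Without both libraries named old the difference was 6.99 points, with an exact permutation p of 0.1, the smallest that 3 against 3 can give.

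Ald1 end 11 showed the reverse pattern, at 1.64%, 1.52%, 1.61% and 11.9% of Ald1 counts in synaptosome 1, 2, 3 and old, against 6.28%, 6.27%, 5.16% and 6.90% in input 1, 2, 3 and old. The share was lower in each numbered synaptosome library than in every input library and highest of all in synaptosome old. Its usage difference was −0.83 on the log2 scale (edgeR adjusted p = 0.896), and −1.33 without both libraries named old (edgeR adjusted p = 0.136). End 1 likewise held 0.912%, 0.120%, 0.647% and 8.18% in synaptosome 1, 2, 3 and old, against 1.26%, 1.87%, 1.31% and 2.21% in input 1, 2, 3 and old. Its usage difference of −0.31 (edgeR adjusted p = 0.9999) changed sign when synaptosome 2 was left out, to 0.35. End 12 had a usage difference of −0.34 (edgeR adjusted p = 0.9999).

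Ald1 end 20 had 65.0, 27.9, 32.3 and 12.5 CPM in synaptosome 1, 2, 3 and old, against 80.9, 98.0, 112 and 147 CPM in input 1, 2, 3 and old. Every synaptosome library was below every input library, as for 16.9% of all tested ends. The log2 fold change was −1.67 (SE 0.56) with an edgeR adjusted p of 0.129. As a share of Ald1 counts it was 1.76%, 0.177%, 0.411% and 0.365% in synaptosome 1, 2, 3 and old, against 1.76%, 2.13%, 2.64% and 2.40% in input 1, 2, 3 and old. Synaptosome 1 thus equalled input 1, and the other synaptosome libraries were lower. The usage difference was −1.61 (SE 0.58, edgeR unadjusted p = 0.00675, adjusted p = 0.179).

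Pgi, Pfk and Eno were the other members with more than 1 end of at least 1% of the counts. Pgi end 0 held 9.86%, 12.5%, 5.88% and 7.37% of Pgi counts in synaptosome 1, 2, 3 and old, against 14.3%, 27.1%, 18.3% and 21.0% in input 1, 2, 3 and old, and end 2 held the rest. The share of end 0 was lower, and that of end 2 higher, in every synaptosome library than in every input library, as for 9.02% and 5.47% of 3824 tested ends whose genes had counts in all libraries. The mean share of end 0 was 8.90% ± 2.91 in synaptosomes and 20.2% ± 5.35 in input (SD, n = 4 each), and its usage difference was −0.80 on the log2 scale (SE 0.42, edgeR adjusted p = 0.939). The level of end 2 was 1055, 1353, 918 and 1727 CPM in synaptosome 1, 2, 3 and old, against 613, 437, 594 and 1096 CPM in input 1, 2, 3 and old (log2 fold change 0.88, SE 0.39, edgeR adjusted p = 0.309). The level of end 0 had a log2 fold change of −0.45 (SE 0.49, edgeR adjusted p = 0.809).

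Pfk end 1 held 49.0%, 36.2%, 67.4% and 46.2% of Pfk counts in synaptosome 1, 2, 3 and old, against 27.3%, 43.0%, 38.1% and 30.3% in input 1, 2, 3 and old. The groups overlapped, since synaptosome 2 was below input 2 and 3. Pfk had the fewest counts of the members with several ends, 174 reads in synaptosome 2, and the Wilson interval there was 7.07 points to either side. The usage difference of end 1 was 0.35 (edgeR adjusted p = 0.9999).

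Eno end 1 held 56.1%, 30.6%, 29.1% and 16.6% of Eno counts in synaptosome 1, 2, 3 and old, against 12.9%, 19.2%, 17.9% and 18.3% in input 1, 2, 3 and old. Synaptosome 1, 2 and 3 were above every input library and synaptosome old was not, and the usage difference was 0.56 (edgeR adjusted p = 0.9999). Eno end 2 held 64.5% ± 18.2 in synaptosomes and 75.7% ± 3.86 in input (SD, n = 4 each). Eno end 4 had 49.4, 15.6, 14.5 and 23.3 CPM in synaptosome 1, 2, 3 and old, against 94.5, 65.7, 128 and 115 CPM in input 1, 2, 3 and old. Every synaptosome library was below every input library, as for 16.9% of all tested ends. The log2 fold change was −1.96 (SE 0.57, edgeR adjusted p = 0.0628). In DESeq2 the log2 fold change of end 4 was −1.78 with an adjusted p of 0.0372, the only member end called there, where 10.6% of all ends with an adjusted p were called in either direction. As a share of Eno counts, end 4 held 5.02%, 1.85%, 1.23% and 1.47% in synaptosome 1, 2, 3 and old, against 9.59%, 3.84%, 12.2% and 3.43% in input 1, 2, 3 and old, and these overlapped. The usage difference was −0.92 (edgeR adjusted p = 0.953). Rrp40 lies on the opposite strand at the Eno locus.

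**Figure D5:**
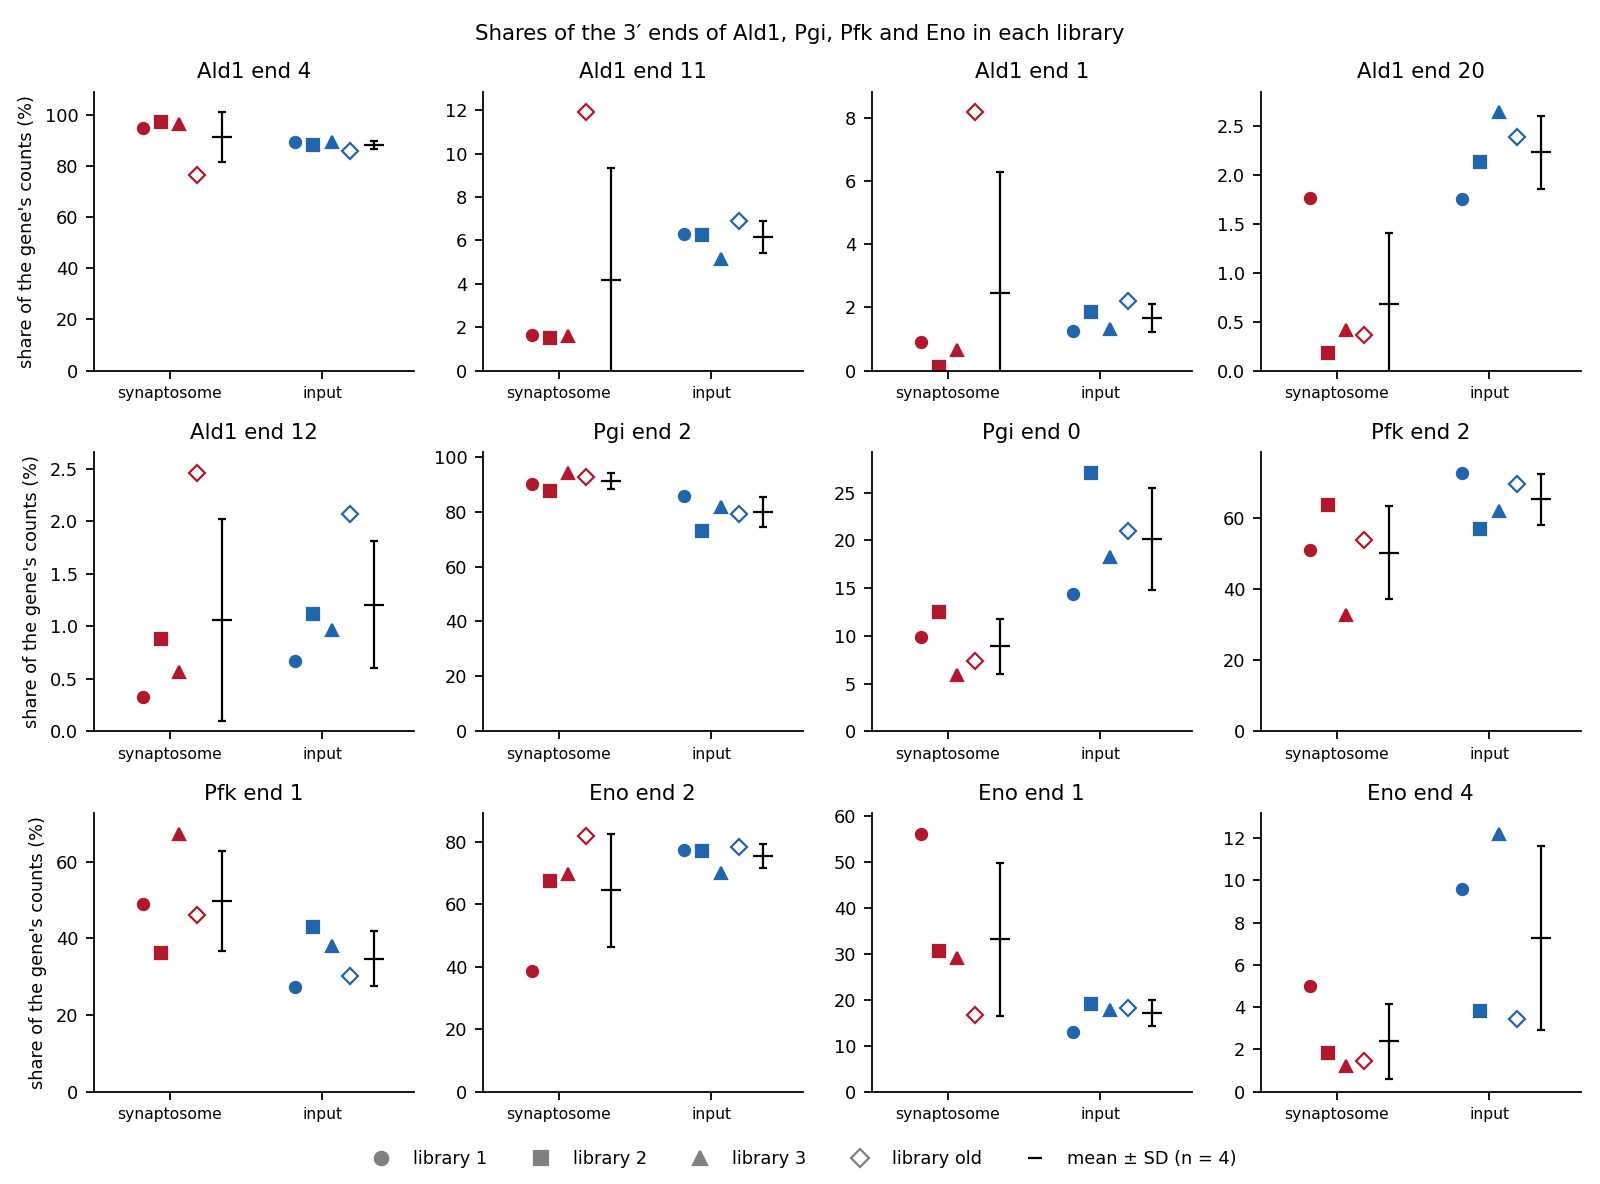
Percent of a gene's counts at each 3′ end that held at least 1% of them, for Ald1, Pgi, Pfk and Eno, in the 4 synaptosome and the 4 input libraries, with mean and SD (bars are cut at 0). Pgi end 0 and end 2 are the only panels in which the groups do not overlap. In the panels of Ald1 end 4, 11 and 1 the open diamond of synaptosome old lies far from synaptosome 1 to 3.

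Genes around the pathway were mostly not called either. Over all tested genes 0.944% were called higher in synaptosomes and 4.13% lower, so lists this short can hold few calls. Of 4 tested genes among other glycolytic enzymes and paralogs, 0 were called in edgeR. Hexokinase Hex-A, which feeds Pgi, had a log2 fold change of −0.06 (edgeR adjusted p = 0.986) and Pfrx, which makes the activator of phosphofructokinase, one of −0.11 (edgeR adjusted p = 0.964). The other tested genes of this list lay farther from 0, on opposite sides. Hex-C had a log2 fold change of −1.14 (edgeR adjusted p = 0.438) and CG7059 one of 0.72 (edgeR adjusted p = 0.891). The paralog Ald2 had 21 counts, all of them in synaptosome 2, and 0 in all input libraries, and it did not pass the filter. Among genes of lactate, glycerol phosphate and related shuttles 0 of 10 tested were called (median log2 fold change −0.46). At an edgeR unadjusted p under 0.05 there were 2 of these, against 14.3% of all tested genes. Both were lower in synaptosomes: Men-b (log2 fold change −1.50, edgeR adjusted p = 0.215) and Argk1 (−1.84, edgeR adjusted p = 0.301). The counts were 0 of 12 for sugar transport and glycogen or trehalose metabolism (−0.02) and 0 of 4 for gluconeogenesis (0.14).

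Of 6 tested genes of the pentose phosphate pathway, which branches off before Pgi, 1 rose and 0 fell (all tested genes: 0.944% and 4.13%). The median log2 fold change of the 6 was 0.77. The gene that rose was Rpi, ribose phosphate isomerase, with 1245, 1299, 1630 and 862 CPM in synaptosome 1, 2, 3 and old, against 268, 628, 208 and 382 CPM in input 1, 2, 3 and old. All synaptosome libraries were above all input libraries, and the log2 fold change was 1.76 (SE 0.42, edgeR adjusted p = 0.0490). Of 18 tested genes of pyruvate oxidation and the citric acid cycle, 0 rose and 1 fell (all tested genes: 0.944% and 4.13%). The median of the 18 was −0.47. SdhA, the flavoprotein subunit of succinate dehydrogenase, had 84.4, 58.7, 138 and 166 CPM in synaptosome 1, 2, 3 and old, against 326, 314, 330 and 665 CPM in input 1, 2, 3 and old (log2 fold change −1.87, SE 0.45, edgeR adjusted p = 0.0490). Both calls were lost when any library other than synaptosome old was left out, with edgeR adjusted p from 0.0652 to 0.130. Both were also lost without the filter on low counts (edgeR adjusted p = 0.0715 for each), and that of SdhA when only genes averaging 100 or more counts were tested (0.0613) and after thinning to the smallest total (0.0890). The number of genes called over all tested genes was 1166 without synaptosome old and 1 to 32 without any other library, against 414 with all 8.

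Some markers of other cell types were called in edgeR, and 0 of 8 neuron and 0 of 7 fat body markers were. The shares over all tested genes were 0.944% called higher and 4.13% called lower. Of 8 photoreceptor markers 4 fell (ninaE, ninaC, trp and trpl, with log2 fold changes of −4.22, −2.62, −2.96 and −2.22) and 0 rose. Of 9 muscle markers 2 fell (Mlc2 and up, −2.45 and −3.72), of 8 glial markers the GABA transporter gene Gat rose (1.78), and of 5 tested cuticle genes Cpr72Ec rose (2.26). Among the called markers ninaE was called whichever library was left out, while the others lost the call without 4 to 7 of the 8 libraries, at edgeR adjusted p from 0.0509 to 0.134. Gat, ninaC, Mlc2 and up also lost it under other settings, at adjusted p from 0.0504 to 0.127. The summed levels of photoreceptor and glial markers are given above. The part of these cell types in the glycolytic levels was not tested.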

How the data were processed

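Per the methods, the authors ran fastp and then STAR 2.6.1b on dm6, masked internal priming and kept 3′ end clusters near known ends, so ends unknown before are not seen, nor are those beside runs of A unless an annotated end is near. The deposited counts are raw read numbers of genes and of 3′ ends, not normalized. A deposited list of known 3′ ends was used for positions only. The authors' differential expression tables (DESeq fold changes, signal means and p-values) were not used. Each gene count equalled the sum over its ends.

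Genes and ends were tested over all features in R 4.3.3 with edgeR 4.0.16 (filterByExpr, TMM, robust quasi-likelihood, no covariates), end usage with diffSpliceDGE, and Benjamini-Hochberg adjusted p under 0.05 was a call. DESeq2 1.42.0 was an alternative. Fold changes are synaptosome minus input, and CPM use TMM-scaled totals. Single values had exact permutation tests, ratios a pseudocount of 0.5. Tests were checked on simulated counts with larger shifts than the members had, which does not show their power for smaller changes.

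The 10 members and the 13 gene lists (134 symbols, 132 matched, 3 by synonym) were chosen with earlier results of these data known. All members are named, of other lists the genes called, and the 5 most similar genes by Pearson correlation (prior count 2). Outside this rule, some genes of other lists that were not called are named too, such as Hex-A, Pfrx, Ald2, Act88F and the neuron markers. Symbols and positions came from the BDGP6 annotation. No sequences are shown.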

Additional observations from a re-analysis of the deposited data

Results flagged for a closer look

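In 46 groups of 4 libraries, 12 had a library whose distance from the nearest other was large relative to the range of the group. For independent groups of normally spread values, chance gives about 1 in 20 such groups. The groups here share the same libraries, and the end shares of a gene depend on each other, so the 12 are not separate events. Of the gene levels, 6 stood out, all in libraries named old. Synaptosome old had 1629 CPM of Pglym78, against 498 to 614 CPM in the other synaptosome libraries. Input old had 1312 CPM of Pgi, against 570 to 681 CPM in the other inputs. It had 6590 CPM of Gapdh1, against 1222 to 1633 CPM. It had 1062 CPM of Pgk, against 243 to 303 CPM, and 1563 CPM of Pglym78, against 467 to 619 CPM. It had 2532 CPM of PyK, against 930 to 1157 CPM.

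Of the 3′ end shares, 6 stood out. In synaptosome old Ald1 end 4 held 76.6%, against 94.7% to 97.1% in the other synaptosome libraries, while end 11 held 11.9%, against 1.52% to 1.64%, and end 1 held 8.18%, against 0.120% to 0.912%. Synaptosome 1 held 1.76% at Ald1 end 20, against 0.177% to 0.411%, and 5.02% at Eno end 4, against 1.23% to 1.85%. Input 3 held 69.9% at Eno end 2, against 77.0% to 78.3% in the other inputs.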

How the results depend on the processing

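None of the 10 members was called in edgeR or DESeq2 under any of 17 alternatives. Of 170 member values, 149 kept the direction and 21 did not. The end count differed once, with 1 end called in DESeq2 (Eno end 4), and usage never. Pfk was 0.0272 with median-of-ratios size factors, 0.0201 with a mean count of 100 or more and 0.0299 in DESeq2. Between the libraries named old, Ald1 was −0.75 and Tpi −0.12 (chosen after seeing the data). Without both of them Gapdh1 was 0.47 and Pgk 0.14, and thinned to the smallest total Gapdh1 was 0.0136. For the Ald1 share, the second most used end in place of the first gave −1.98 points. The causes were not tested.

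Leaving out each library in turn gave −0.26 (without synaptosome 1) to 0.0901 (without synaptosome 2) for Pfk, −0.19 (synaptosome old) to 0.53 (input old) for Tpi and −0.50 to 0.80 for Gapdh1 (the same pair). It gave −0.67 to 0.56 for Pgk, −0.50 to 0.60 for Pglym78 and −0.66 to 0.0155 for Eno, again without synaptosome old and input old. Ald1 end 1 usage ran from −1.51 (synaptosome old) to 0.35 (synaptosome 2).

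Same-numbered libraries did not deviate together (correlations of −0.017, 0.011 and −0.078), so the numbers were not taken as pairs. With the old libraries as a further pair the correlation was 0.2498 for that pair and −0.018 to 0.039 for the numbered ones. With a replicate block, 0 of the 10 members were called, and Gapdh1 was 0.46 over libraries 1 to 3 and 0.17 with the old pair as a block. The block lowered the calls over all genes to 230 and 117. All-gene calls were 100 without a filter, 124 with a mean count of 100 or more, 634 without both old libraries, 90 after thinning, 920 in DESeq2, 1166 without synaptosome old and 1 to 32 without any other library, against 414. Synaptosome 2, at 1029666 reads, limits the shares of low ends such as those of Pfk.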
